A study of Mus musculus with 18 samples.

Results

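The *Runx1* proximal upstream desert comprised 445 *Dpn*II fragments that were listed as significant 4C-seq interactions by at least 1 of 6 baits and whose midpoints lay on chromosome 16 of mm10 from 92826074, the transcriptional start site of the P1 promoter, up to but not including 93050000. *Runx1* is transcribed from the minus strand, so that this 224-kb stretch lies upstream of the gene. It holds 602 *Dpn*II fragments in all, of which 157 were listed by no bait. The 445 fragments were 22.6% of the 1970 fragments in the lists of all 6 baits together. Among listed fragments, only position chose them.

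The data came from 4C-seq in HPC-7 cells, a mouse haematopoietic progenitor cell line, with 18 libraries in all. Baits lay at the P1 promoter, the P2 promoter and the +24 enhancer, an element inside the gene, and each had a second bait at a nearby cohesin and CTCF binding site (P1cc, P2cc and +24cc). For each bait there were 2 replicates, from cells of passage 8 and passage 10, and 1 control library made from a mix of both, without the first ligation. Which replicate came from which passage is not given in the labels. All libraries were cut first with *Dpn*II. The second enzyme was *Mse*I where the bait was +24 or +24cc and *Bfa*I otherwise, so that enzyme and bait cannot be told apart between these groups. All the libraries came from 1 untreated cell line, whose identity cannot be checked against marker genes in lists of DNA contacts. Each deposited list gives fragments called in both replicates, with a category but no read counts. The number of reads behind each call is therefore unknown, and there is no spread between replicates to print.

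*Runx1* encodes a transcription factor required for the emergence of haematopoietic stem cells, and it is transcribed from a distal promoter, P1, and a proximal promoter, P2. Enhancers can act on a promoter over long distances when the chromatin fibre folds so that both come close together. 4C-seq reads out this proximity: chromatin is cross-linked, cut and ligated, and fragments joined to a chosen bait are sequenced. The fourSig program grades its calls by how much they owe to a single fragment. A category 1 call still passes without its most heavily read fragment, and a category 2 call needs that fragment but passes with its count levelled to the surrounding ones.

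The study named elements of the desert by their distance in kb from the P1 start. The −48 element lay at chr16:92873823-92874806 (984 bp) and the −58 element at chr16:92883674-92884586 (913 bp), as located by the primers that had been used to clone them. Part of the −58 element, which the study tested as an enhancer, is shown as the 300-base stretch that holds most matches to 5 motifs, those of blood cell factors and of CTCF, with these matches in capitals. The other sequence is a whole fragment of 294 bp that was listed by 5 baits, the highest number reached here. Both are 5′ to 3′ on the plus strand of GRCm38.p6 (mm10 coordinates).
−58, chr16:92883927-92884226: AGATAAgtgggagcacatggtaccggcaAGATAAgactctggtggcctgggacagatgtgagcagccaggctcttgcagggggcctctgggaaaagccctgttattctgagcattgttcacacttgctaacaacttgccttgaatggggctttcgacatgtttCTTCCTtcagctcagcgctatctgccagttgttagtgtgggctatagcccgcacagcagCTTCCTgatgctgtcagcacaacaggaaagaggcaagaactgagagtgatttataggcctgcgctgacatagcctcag
fragment of 5 baits, chr16:92830975-92831268: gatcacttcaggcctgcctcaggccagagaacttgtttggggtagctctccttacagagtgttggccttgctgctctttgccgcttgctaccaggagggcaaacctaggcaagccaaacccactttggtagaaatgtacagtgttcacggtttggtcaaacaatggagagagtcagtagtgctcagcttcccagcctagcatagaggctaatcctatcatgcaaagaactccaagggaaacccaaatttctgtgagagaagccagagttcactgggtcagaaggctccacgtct

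Both lie in no annotated gene. The motifs searched, on both strands, were AGATAA, which GATA factors bind, then TGTGGT of RUNX factors, AGGAAG of the ETS family, the E-box CAGCTG and, by name alone, the CTCF core. The stretch of the −58 element holds 2 GATA and 2 ETS matches. The fragment of 5 baits holds no match, which says only that these letters are not in it. Over its full length the −58 element held 2 GATA, 1 RUNX and 3 ETS matches and no E-box or CTCF match. Such short motifs are common. Of 4616 windows of 300 bp across the region in which interactions had been called, 15.1% held the GATA letters, 22.1% the RUNX letters, 34.0% the ETS letters, 14.6% the E-box and 4.66% the CTCF core. Over the 445 fragments, matches per 10 kb were 7.34 for GATA, 8.89 for RUNX, 16.9 for ETS, 5.57 for the E-box and 1.55 for the CTCF core. In the 157 unlisted fragments the same densities were 4.46, 6.10, 15.9, 4.22 and 1.17 per 10 kb. These are descriptions of letters in the sequence and not of binding.

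Listing was dense in the proximal desert. At least 1 bait listed 73.9% of its 602 fragments, which together made up 81.0% of its bases. For comparison, 43.4% of the 3221 fragments were listed across the whole 1385-kb region that the authors called separately around *Runx1* (809 kb upstream and 576 kb downstream of the P1 start), and 36.4% of those outside the proximal desert. Of the 445 fragments, 356 (80%) were category 1 for at least 1 bait and 89 for none. Over the called region 34.9% of all fragments were category 1 for some bait, and outside the desert 80.7% of the listed ones were, so that the share among listed fragments was near the background.

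**Figure D1:**
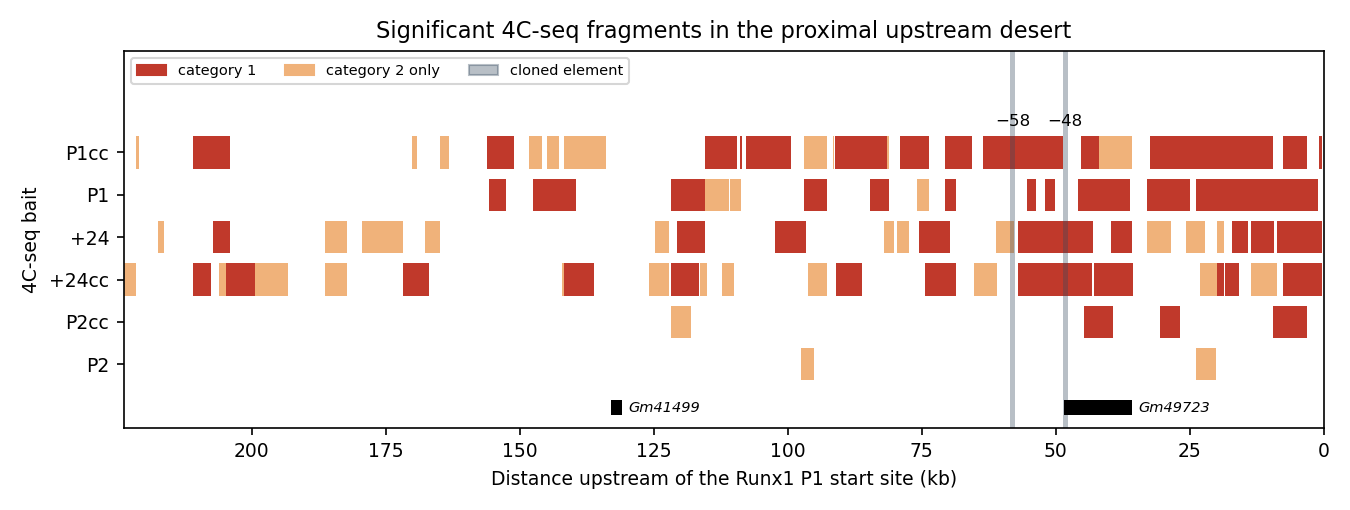
Listed *Dpn*II fragments of the proximal upstream desert for each of the 6 baits (rows), plotted by distance upstream of the P1 start site in kb with the gene to the right. Red fragments were category 1 and orange ones category 2 only, grey bands are the cloned −48 and −58 elements and black bars are long non-coding RNA genes. The P1cc, P1, +24 and +24cc rows are filled over much of the first 100 kb, whereas P2cc shows 4 interactions and P2 shows 2.

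The baits at P1 and +24 listed large parts of the desert. P1cc listed 292 of 602 fragments (48.5%), against 16.1% of all fragments in the called region. P1 listed 205 (34.1%, against 12.1%), +24 listed 215 (35.7%, against 21.2%) and +24cc listed 248 (41.2%, against 24.9%). The baits at P2 listed few, P2cc with 51 fragments (8.47%, against 9.69%) and P2 with 12 (1.99%, against 9.59%). Category 1 calls followed the same split. P1cc had 231 of them, P1 187, +24 134, +24cc 167 and P2cc 46, where the called region as a whole had 10.4%, 10.4%, 15.5%, 15.2% and 8.26% of its fragments in category 1 for these baits. P2 had no category 1 fragment in the desert, although 8.01% of the fragments of the called region were category 1 for P2.

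The desert made up a larger part of the lists of the P1 baits than of the others. It held 54.5% of all fragments listed by P1cc and 51.9% of those listed by P1, but 23.5% of the list of +24, 20.6% of that of +24cc, 16.2% of that of P2cc and 3.88% of that of P2. Farther upstream in the called region, beyond the desert, P1cc listed 8.74% and P1 6.69% of fragments. For +24 and +24cc these shares were 12.4% and 13.0%, and for P2cc and P2 they were 0.684% and 1.52%. In the gene and downstream of it, P2 listed 21.3% and P2cc 19.3% of fragments, +24 and +24cc 23.3% and 29.4%, and P1cc and P1 8.67% and 7.37%.

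Neighbouring listed fragments were merged into 1 interaction when they abutted. The desert then held 80 interactions over the 6 baits, counted by their midpoints, of which 42 were category 1 throughout, 32 had no category 1 fragment and 6 were mixed. P1cc had 21, P1 had 13, +24 and +24cc had 20 each, P2cc had 4 and P2 had 2. For the P1 pair (P1cc and P1), 34 of 80 interactions in the called region lay in the desert (42.5%), compared with 6 of 56 (10.7%) for the P2 pair. By Fisher's exact test, two-sided, the odds ratio of 6.08 (95% confidence limits 2.25 and 19.4) had an adjusted p of 0.000148 over 3 comparisons. For the +24 pair it was 40 of 111 (36.0%), which was also above the P2 pair (odds ratio 4.66, 1.78 to 14.5, adjusted p = 0.000661 by Fisher's exact test). With the cc baits alone, this second difference did not pass (odds ratio 2.94, exact adjusted p = 0.112). No difference between the P1 and +24 pairs was shown by this count (odds ratio 1.31, 0.697 to 2.46, exact adjusted p = 0.372), whereas with fragments counted one by one it was 2.66 (exact adjusted p = 1.44e-29). The counts are of interactions and not of replicates: neighbouring calls are not independent, and DNA contacted by both baits of a pair is counted for each. These p-values are therefore too small, and they compare the deposited lists only.

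With baits as the units, the 4 baits at P1 and +24 listed a mean of 39.9% of the desert's fragments and the 2 baits at P2 a mean of 5.23%, a difference of 34.6 percentage points. Each of these 4 baits was above both P2 baits. An exact two-sided permutation test gave p = 0.0667, which is the smallest value that the 15 possible labelings allow. The labelings treat each bait and its cc bait as separate units, although these are near neighbours on the DNA and share the same cells. Fewer labelings would remain if they were kept together, and the smallest possible p would be larger. The P2 baits lie 128 kb and 129 kb from the P1 start, whereas P1cc lies inside the desert and the +24 baits 24.3 kb and 25.6 kb from it.

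Distance from the bait moved with this difference. At an equal distance of 129 to 229 kb upstream of the bait itself, which for P2 is the first 100 kb of the desert, P1cc listed 27.1% of fragments, P1 12.2%, +24 16.6%, +24cc 29.5%, P2cc 17.4% and P2 4.49%. P2cc was thus above P1 and +24 in this window, and P2 remained the lowest of the 6. All 46 fragments of P2cc in this window were category 1, as were all 33 of P1, compared with 41 of 74 for P1cc, 39 of 78 for +24cc, 7 of 44 for +24 and none of 12 for P2. The windows of the P2 baits lie over other DNA than those of the P1 and +24 baits, which overlap each other, and distance and bait cannot be told apart for the desert itself.

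**Figure D2:**
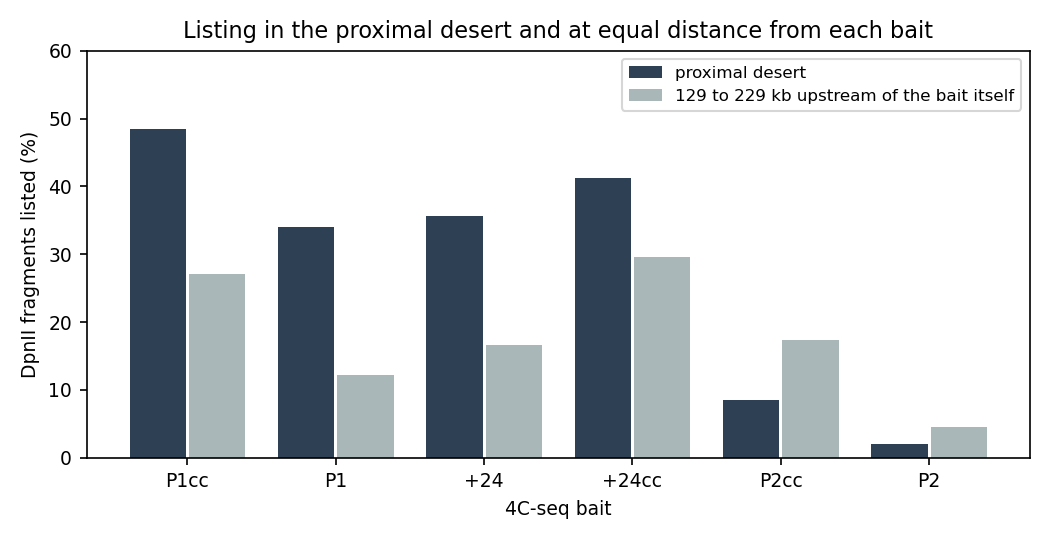
Share of *Dpn*II fragments listed by each bait (y axis, %) in the proximal upstream desert (dark bars) and in the window 129 to 229 kb upstream of that bait (light bars). The bars have no error because each list pools both replicates. The 4 baits at P1 and +24 listed between 34.1% and 48.5% in the desert and between 12.2% and 29.5% at this distance. For P2cc and P2 this window is the near part of the desert and holds most or all of the fragments that they listed there. P2 has the same 12 fragments over 267 and over 602, and P2cc has 46 of 264 and 51 of 602. Their higher light bars reflect the smaller number of fragments in the window.

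Listing thinned out with distance from P1. In bins of 25 kb, all 76 fragments of the first bin were listed by at least 1 bait, then 89.9%, 95.4%, 80.7% and 83.9% of the next bins up to 125 kb, and between 47.3% and 63.2% beyond. Within 100 kb of P1, 246 of 267 fragments were listed (92.1%), and farther out 199 of 335 (59.4%). The P1 bait fell from 90.8% of fragments in the first 25 kb to 33.8% at 50 to 75 kb, and within the desert it listed nothing beyond 156 kb. P1cc, at 81.6% in the first bin, still listed 80% at 50 to 75 kb and reached out to 221 kb. +24 and +24cc listed 61.5% and 73.8% at 50 to 75 kb and 28.1% and 22.8% at 75 to 100 kb. At 100 to 125 kb their shares were 30.4% and 35.7%, and at 125 to 150 kb they were at their lowest, with none for +24 and 18.2% for +24cc. At 175 to 200 kb they listed 24.3% and 33.8%, in a bin where P1cc and P1 listed none. Of those 74 fragments 4.05% were category 1 for any bait. P2cc listed 27.6% up to 25 kb, 36.2% at 25 to 50 kb, 8.93% at 100 to 125 kb and none in any other. P2 listed 10.5% of the first bin, 7.02% at 75 to 100 kb and none elsewhere. The 25-kb bins describe position and were not tested.

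**Figure D3:**
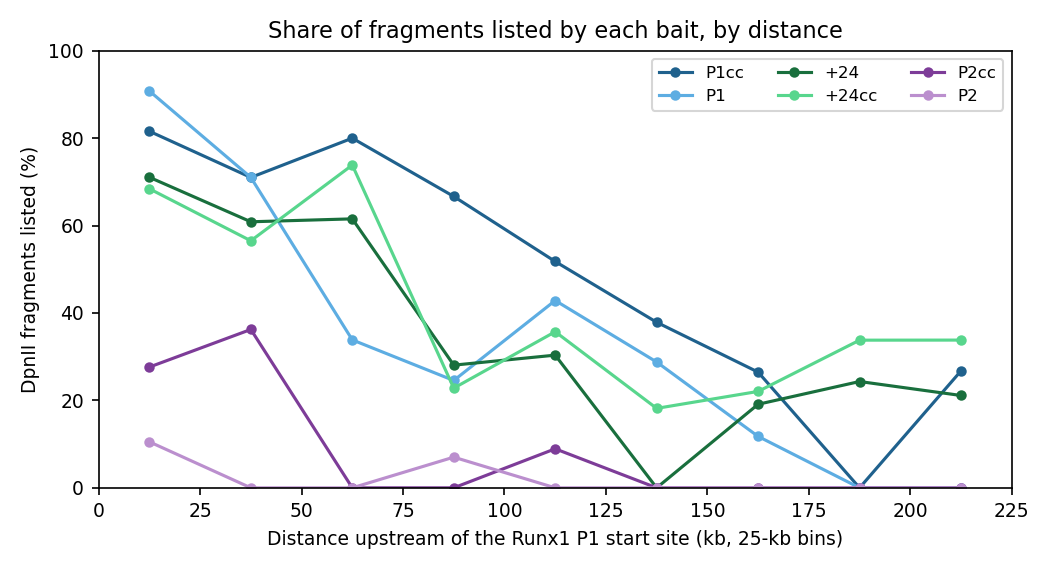
Share of *Dpn*II fragments listed by each of the 6 baits (y axis, %) in 25-kb bins of distance upstream of the P1 start site (x axis, kb). P1cc, P1, +24 and +24cc begin between 68.4% and 90.8%. In the last bin, from 200 kb on, P1cc lists 26.8%, +24 21.1% and +24cc 33.8%, and P1 lists none.

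A test of interactions did not show a difference in category 1 calls between the proximal desert and the chromatin farther upstream. For the P1 pair, 24 of 34 proximal interactions held a category 1 fragment (70.6%), against 14 of 26 beyond the desert (53.8%; odds ratio 2.03, 0.622 to 6.84, Fisher's exact adjusted p = 0.559). For the +24 pair these were 21 of 40 (52.5%) and 14 of 29 (48.3%; odds ratio 1.18, 0.409 to 3.43, exact adjusted p = 0.809). The direction for the +24 pair differed between its baits, with an odds ratio of 0.375 for +24 and 3.19 for +24cc. Neither passed the threshold (Fisher's exact adjusted p = 0.378 and 0.213). Counted as fragments, which share their calling window with their neighbours, the shares of both pairs were higher in the desert (odds ratios 4.64 and 2.02).

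No fragment was listed by all 6 baits. In the desert 145 fragments were listed by 1 bait, 125 by 2, 90 by 3, 67 by 4 and 18 by 5. The share that was category 1 for at least 1 bait was 48.3% among fragments of 1 bait and 88.8% among those of 2. It was 100% from 3 baits on. A fragment of more baits has more calls, any 1 of which can be category 1, so this share rises with the number of baits anyway. Fragments of many baits also lay nearer to P1: the median distance was 168 kb for 1 bait, 111 kb for 2, 49.95 kb for 3, 38.5 kb for 4 and 6.69 kb for 5. Fragments listed once came mostly from P1cc (52), +24cc (50) and +24 (36), with 7 from P1 and none from P2cc or P2. Category 1 held 37 of the 52 of P1cc alone, 5 of the 7 of P1, 25 of the 50 of +24cc and 3 of the 36 of +24. Of those of +24cc alone 44 lay beyond 100 kb, as did 29 of those of +24 alone. Among all fragments listed beyond 100 kb, 49 of 96 were category 1 for +24cc and 19 of 63 for +24, so that the value for +24cc was near its background.

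**Figure D4:**
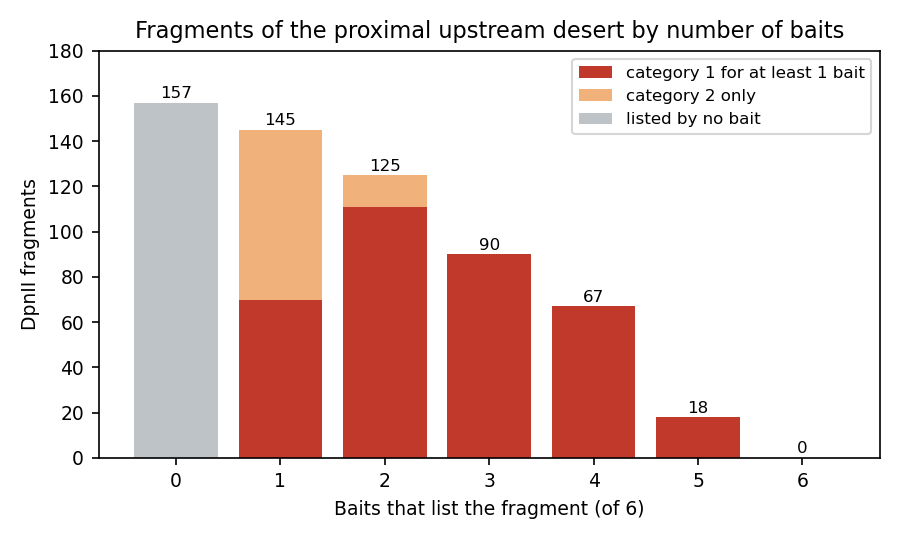
Number of *Dpn*II fragments of the proximal upstream desert (y axis) by how many of the 6 baits listed them (x axis). Red is the part that was category 1 for at least 1 bait, orange the part in category 2 only, and grey the 157 fragments listed by none. From 3 baits on every fragment was category 1 for at least 1 bait, and no fragment reached 6 baits. The red share grows with more baits in any case, because each listing is a further call that can be category 1.

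Fragments listed by none differed in length from the listed ones. Their median length was 167 bp (quartiles 57 to 400 bp), against 294 bp (139 to 551 bp) for the 445 listed, and 37.6% against 20.0% were shorter than 100 bp. The GC content was 44.9% in both sets, and repeats made up 17.9% and 19.3% of the bases. A fragment can receive reads only where its end can be mapped, and 13.4% of unlisted fragments had no end of 30 bases that was unique in the genome, against 5.17% of listed ones. How far length and mappability set which fragments were listed was not tested.

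The lists of a bait and its cc bait overlapped to very different degrees. P1cc and P1 shared 169 fragments, 57.9% of those of P1cc and 82.4% of those of P1, and the Jaccard index of the covered bases (shared over combined) was 50.3% in the desert, against 19.8% in the rest of the called region. +24 and +24cc shared 125 fragments, 58.1% and 50.4% of their lists, with an index of 36.9% in the desert and 49.8% elsewhere. P2cc and P2 shared none in the desert, where they listed only 51 and 12 of the 602 fragments, and their index was 43.3% elsewhere. Lists that cover more DNA overlap more by coverage alone. P1cc and P1 covered 53.4% and 36.0% of the desert's bases, and +24 and +24cc 39.5% and 47.0%. Outside the desert P1cc and P1 listed between 6.69% and 8.74% of fragments. How far coverage set these indices was not tested, and they are single values with no replicate error.

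Every fragment that a P2 bait listed in the desert was also listed by a bait at P1 or +24. All 51 fragments of P2cc were also listed by P1, and 38 of them (74.5%) by P1cc. Of the 51, 46 lay within 50 kb of P1, where P1 listed 90.8% and 71.0% and P1cc 81.6% and 71.0% of all fragments in the 25-kb bins, so that the share for P1cc was near that of its surroundings. Of the 12 fragments of P2, 11 were also listed by P1cc and 11 by P1. Of these 12, 8 lay in the first 25 kb and 4 at 75 to 100 kb, where P1cc listed 66.7% and P1 24.6% of all fragments. Of the 63 fragments of the P2 pair, 62 were in the list of P1cc or P1, 57 in that of +24 or +24cc, and 56 in both. Most of these lay in the first 50 kb, where +24 listed 71.1% and 60.9% of all fragments in the 25-kb bins. The shares of +24cc there were 68.4% and 56.5%. Listing by the P1 and +24 baits was thus dense there for all fragments, and whether the overlap of the pairs exceeded it was not tested. Of all 602 fragments of the desert, the P1 pair listed 328 and the +24 pair 338, and 221 were common to both pairs. Lists of this size share many fragments by density alone, and an excess over that was not tested. The P1 pair alone listed 101 fragments, the +24 pair alone 116 and the P2 pair alone none.

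The 4 interactions of P2cc and the 2 of P2 lay at separate places. Those of P2cc were at 92829217-92835615 (21 fragments, 3.14 to 9.54 kb from P1), 92852834-92856660 (8 fragments, 26.8 to 30.6 kb), 92865329-92870840 (17 fragments, 39.3 to 44.8 kb) and 92944127-92947840 (5 fragments, 118 to 122 kb). The first 3 were category 1 throughout and the last had no category 1 fragment. Those of P2 were at 92846192-92849856 (8 fragments, 20.1 to 23.8 kb) and 92921272-92923591 (4 fragments, 95.2 to 97.5 kb), both without a category 1 fragment.

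The longest interactions lay near P1. That of P1cc ran from 92835616 to 92858422 (22807 bp, 65 fragments, 9.54 to 32.3 kb) and that of P1 from 92827210 to 92849970 (22761 bp, 69 fragments, 1.14 to 23.9 kb). That of +24, at 92819536-92834726 (15191 bp, 36 fragments), and that of +24cc, at 92819667-92833590 (13924 bp, 32 fragments), both began inside the gene and crossed the P1 start. All 4 were category 1 throughout. P1cc lies in the desert, and 6 fragments around it (92827014-92829216) were absent from its own list but present in those of other baits. One further interaction of P1cc, at 92819303-92827013, had its midpoint in the gene and 3 of its 17 fragments in the desert.

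The places that most baits listed were short. The longest run of adjacent fragments listed by at least 4 baits each was at 92862147-92868932 (6786 bp, 19 fragments, 36.1 to 42.9 kb), where P1cc, P1 and +24cc listed every fragment and P1 and +24cc had all of them in category 1. The second was at 92829217-92833719 (4503 bp, 13 fragments, 3.14 to 7.64 kb), with P1cc, P1, +24 and P2cc in category 1 throughout. The third was at 92835377-92839709 (4333 bp, 10 fragments, 9.30 to 13.6 kb). Within the second run, 12 fragments at 92829217-92833590, the printed one among them, were category 1 for 5 baits, all but P2. The same held for 4 fragments at 92869356-92870840, 43.3 to 44.8 kb from P1. The only fragment that P2 shared with 4 other baits was at 92848189-92849150, 22.1 to 23.1 kb from P1. These 3 longest runs held 5, 2 and 1 GATA matches, 4, 12 and 4 RUNX matches, and 26, 17 and 7 ETS matches. They also held 5, 1 and 3 E-boxes, and 1 CTCF core match each. The runs differ in length, and repeats made up 30.5%, 20.9% and 13.3% of their bases. Whether any motif was enriched in them was not tested.

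The −48 element lay within the +24 contacts. It overlaps 7 *Dpn*II fragments, and both +24 and +24cc listed all 7 in category 1, as part of interactions at 92869067-92883082 (14016 bp, 46 fragments) and 92869356-92883082 (13727 bp, 44 fragments) that were category 1 throughout. P1cc touched only its distal edge, through an interaction at 92874799-92883082 (28 fragments, all category 1) that covered 0.813% of the element's bases. The nearest interaction of P1 was 1.35 kb away, at 92876155-92878134 (8 fragments, all category 1). P2cc came no closer than 2.98 kb, at the third of its interactions, and P2 no closer than 24.0 kb. With the criterion of an interaction at or within 2 kb, 4 of 6 baits contacted the element.

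The −58 element was covered in full by P1cc alone. It overlaps 2 fragments, and P1cc listed both in category 1, within an interaction at 92883190-92889567 (9 fragments, all category 1). +24 listed 1 of the 2, which holds 79.8% of the element's bases, in an interaction at 92883858-92887197 that had no category 1 fragment among its 5. +24cc listed neither, and its long interaction over the −48 element ended 0.591 kb short of it. P1 was 2.19 kb away, P2cc 12.8 kb and P2 33.8 kb. Within 2 kb, 3 of 6 baits contacted the element. These were P1cc, +24 and +24cc, and for P1 itself the element lay just outside this criterion. Listing was dense in the surroundings as well. Without any added distance, the mean number of baits that listed a fragment was 2.96 at 25 to 50 kb and 2.49 at 50 to 75 kb, where P1cc listed 71.0% and 80% of fragments, +24 60.9% and 61.5%, and +24cc 56.5% and 73.8%. The study chose both elements partly because a significant interaction lay within this distance, so that these contacts are not independent evidence.

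**Figure D5:**
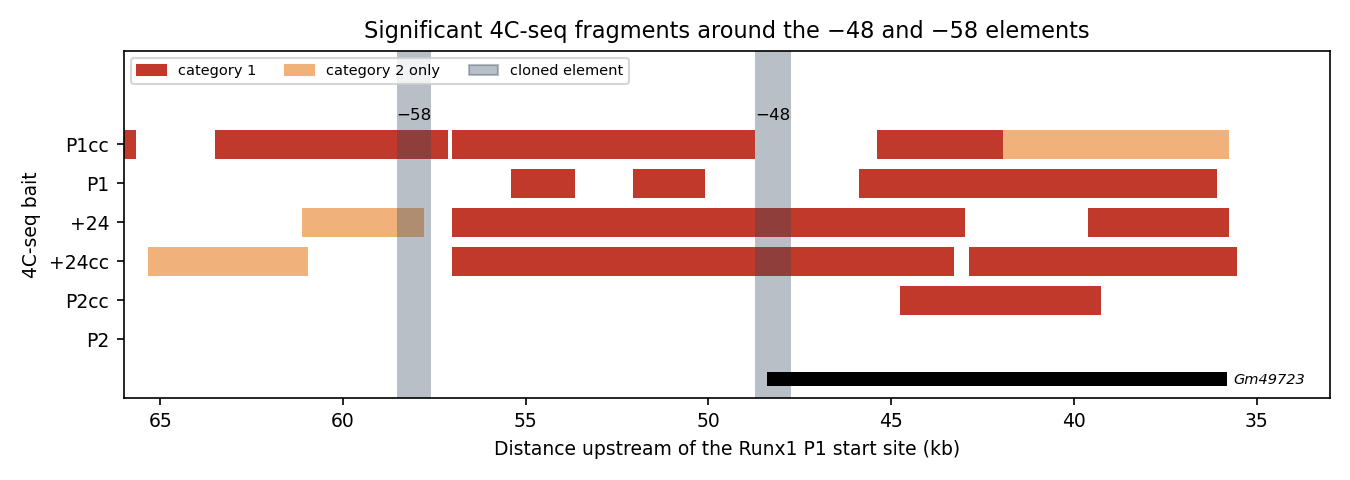
Listed fragments of the 6 baits (rows) around the −48 and −58 elements (grey bands), by distance upstream of the P1 start site in kb; red is category 1, orange category 2 only, and the black bar is the *Gm49723* gene. The −48 band is covered by red for +24 and +24cc and touched by P1cc at its edge, while the −58 band is covered by red for P1cc and in part by orange for +24.

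The desert has no curated RefSeq gene. GENCODE M21 places a long intergenic non-coding RNA, *Gm49723*, at 92861877-92874472 on the plus strand, 35.8 to 48.4 kb from P1. All 39 fragments that overlap it were listed: +24cc listed 36 of them, P1 and +24 listed 29 each, P1cc 28, P2cc 17 and P2 none. Listing was high around the gene too: of all 69 fragments at 25 to 50 kb, 89.9% were listed by at least 1 bait, with 71.0% listed by P1, 71.0% by P1cc, 60.9% by +24, 56.5% by +24cc and 36.2% by P2cc. Within the gene, every listed fragment was category 1 for P1, +24, +24cc and P2cc, compared with 10 of 28 for P1cc. For P1, +24cc and P2cc the same was true of every listed fragment of the whole bin, whereas +24 had 44.9% and P1cc 44.9% of the bin's fragments in category 1. The third exon, at 92874210-92874472, lies in the −48 element, and its fragments were listed by +24 and +24cc. RefSeq predicts a second non-coding gene, *Gm41499*, at 92956959-92959120, 131 to 133 kb from P1, and none of its 6 fragments was listed by any bait. It sits in the longest stretch without a listed fragment, at 92951901-92960041 (8141 bp, 28 fragments, 126 to 134 kb), of which 3 fragments had no unique end and 13.8% of the bases were repeats. The next such stretches lay farther out, at 92982121-92989266 and 93012335-93019245 (22 and 28 fragments). On the gene side the desert borders *Runx1* itself. On the far side the next annotated genes were *Gm28003*, a GENCODE microRNA 247 kb from P1, the predicted *Gm30474* at 302 kb and the curated non-coding gene *1810053B23Rik* at 518 kb.

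Both edges of the desert cut through contacted chromatin. The first fragment inside (92826362-92826590) and the last one outside (92825095-92826361) were listed by P1cc, +24 and +24cc, all in category 1. At the far edge the last fragment inside (93049177-93050195) was listed by +24cc alone, without category 1, and the next one outside (93050196-93050679) by P1cc and P1 in category 1.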

How the data were processed

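The authors used Bowtie (mm10, 0 mismatches, reads under 30 bases dropped) for alignment and fourSig to count alignments over *Dpn*II fragments. Fragments with any read in the control (1 or more) lost their reads. Interactions were called per replicate (window of 3 fragments, 1000 iterations, fdr 0.01, fdr.prob 0.05), on chromosome 16 and separately around *Runx1*, and calls present in both replicates were kept. In the deposited lists the score is 1000 for every fragment and was not used.

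Listed fragments were matched to *Dpn*II fragments of GRCm38.p6. Elements and baits were located by their primers (edlib 1.3.9.post1, 1 difference allowed), whose letters were read from page images. Shares of merged interactions were compared by Fisher's exact test, two-sided, with p adjusted after Benjamini-Hochberg (scipy 1.17.1, numpy 2.4.6, Python 3.11.15), after tests on simulated data. Unique ends were found with numba 0.67.0, and plots drawn with matplotlib 3.10.9. Runs, interactions and genes were named by rank of length or by position. The desert, lists and tests were chosen with earlier results of these data known, and the equal-distance windows after seeing the lists. Alternatives changed the edges, merging, category, placement, contact distance and choice of baits. Control libraries have no list of their own and enter through the removal of their reads. One sequence is not reported here.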

Additional observations from a re-analysis of the deposited data

How the results depend on the processing

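No paired analysis was possible because each list pools both replicates, and no replicate could be left out for the same reason. The P1 pair's higher proximal share than the P2 pair kept its direction and its side of the threshold in all 9 alternatives (odds ratios 4.25 to 10.7). That of the +24 pair did so in 8 of 9, and with the cc baits alone the odds ratio was 2.94 (Fisher's exact adjusted p = 0.112). With fragments not merged, the P1 pair was above the +24 pair (odds ratio 2.66, exact adjusted p = 1.44e-29), and the share of category 1 was higher in the desert than beyond it for the P1 pair (4.64, adjusted p = 3.31e-16) and the +24 pair (2.02, adjusted p = 1.56e-06). Fragments share their calling window with their neighbours, so that these p-values are too small. The category 1 odds ratio of the +24 pair, 1.18 with p above the threshold, fell below 1 with the upper edge 50 kb higher (0.930) and without the cc baits (0.375), and the cause was not tested. The difference in percent of fragments listed was between 26.0 and 40.2 percentage points in 6 alternatives, including 1 chosen after the data were seen (fragments with a unique end only), with an exact p of 0.0667 in each. Baits contacting the −48 element numbered 3 to 5 and the −58 element 2 to 4. Without read counts, depth sets no limit that can be stated.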
